A study of Mus musculus with 24 samples.

Results

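The NF-kappaB transcription factors, their inhibitors and the kinase that releases them were followed through the hippocampus of newborn mice given morphine and stress. The members were 10 genes, of 36163 gene names on the array: the subunits Nfkb1, Nfkb2, Rel, Rela and Relb, the inhibitors Nfkbia and Nfkbib, and the IkappaB kinase genes Chuk, Ikbkb and Ikbkg. All non-control probes whose gene name was a member were kept, which gave 15 probesets of 55681. Hippocampal RNA of male C57BL/6 pups killed on P9 had been hybridized to 15 Agilent arrays, 5 from untreated controls (Con), 5 from pups given 2 mg/kg morphine plus stress (MS2) and 5 from pups given 5 mg/kg morphine plus stress (MS5). From P5 the treated pups were taken from the dam each day, exposed to simulated apnea and injected with morphine, whereas controls stayed in the home cage with little handling and received neither stress nor injection. Each contrast with controls therefore spans morphine, separation, apnea and injection together, and the MS5 versus MS2 contrast is the only one in which the stress protocol was shared. After treatment, pups went back to a home cage that held untreated littermates used as controls. Both hippocampi of a pup went into a single tube. The labels name no litter, so litter could not enter the fits and p-values measure the spread between these arrays.

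NF-kappaB is a dimer of Rel-family proteins that IkappaB proteins hold in the cytoplasm. Signals from tumor necrosis factor, interleukin-1 and Toll-like receptors reach the IkappaB kinase complex, which marks the inhibitor for destruction and frees the dimer to enter the nucleus. Nfkbia is itself switched on by NF-kappaB and so closes a feedback loop, and Nfkb2 and Relb form the slower noncanonical branch. In brain the pathway is known from microglia, astrocytes and endothelium during inflammation and from neurons during synaptic activity. An array reads transcript levels only, whereas much of the regulation of the pathway is by protein modification and location.

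The probes are the basis of each value, and those of the inhibitors and of Relb are shown here, all 60 bases long, 5′ to 3′, with positions from the scanner files on mouse build mm9. The Nfkbia probe lies on the minus strand at chr12:56590945-56591440, a listed span of 496 bases that is longer than the probe. Nfkbib had 3 probes on the minus strand of chromosome 7, of which those at chr7:29544160-29544219 (A_55_P1989733) and chr7:29545252-29546647 (A_66_P120882) are printed because their difference between the doses was -0.01 each, unlike that of the third. The latter, A_55_P2051666, had a stop codon in each of the 3 frames and is not printed. Of the 3 forward reading frames, 2 were free of stop codons in the Nfkbia probe, 2 in A_55_P1989733 and 1 in A_66_P120882.
Nfkbia A_51_P295192: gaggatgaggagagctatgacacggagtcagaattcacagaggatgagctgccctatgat
Nfkbib A_55_P1989733: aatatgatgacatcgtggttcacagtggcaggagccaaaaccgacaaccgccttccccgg
Nfkbib A_66_P120882: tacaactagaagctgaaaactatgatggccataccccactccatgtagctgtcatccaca

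The Relb probes lie next to each other on the minus strand, A_55_P2168736 at chr7:20191773-20191832 and A_51_P389751 at chr7:20191722-20191781, and share 9 bases. The last 24 bases of the former and the first 24 of the latter are given, with the shared bases in capitals, to show that the 2 readings of this gene come from adjoining stretches with a short overlap.
Relb A_55_P2168736: ctgcagcgctggtggGAAGATGGG
Relb A_51_P389751: GAAGATGGGgagcactccggttct

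The promoters show which members carry the letters that NF-kappaB itself is known to bind. RefSeq promoter sequences (GRCm38.p6, 250 bases before each start) matched 7 of the 10 members by symbol, and no entry was matched for Nfkb1, Relb and Ikbkb. The kappaB consensus decamer was searched on both strands, and it was found for Nfkb2, Rel and Nfkbia, that is 3 of 7 member genes, against 4.46% of all 27025 genes with a promoter, and 5 of 12 member promoters, against 3.9% of all 32851. Because the decamer is nearly a palindrome, the Rel match and the Nfkb2 match 39 bases before the start were each also found on the other strand, shifted by 1 base. In Nfkbia the match lies on the opposite strand, 29 bases before the start, at the end of the upstream stretch chr12:55492648-55492897 (minus strand). It is in capitals in the full stretch, as are the Rel match 92 bases before the start and the Nfkb2 match in stretches of 30 bases. A match is a run of letters and not a measured binding site.
Nfkbia promoter: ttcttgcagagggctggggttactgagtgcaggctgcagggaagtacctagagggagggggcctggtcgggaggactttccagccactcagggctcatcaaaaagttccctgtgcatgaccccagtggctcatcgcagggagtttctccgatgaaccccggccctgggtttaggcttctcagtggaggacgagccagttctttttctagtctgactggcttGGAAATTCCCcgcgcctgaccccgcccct
Rel: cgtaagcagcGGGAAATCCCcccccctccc
Nfkb2: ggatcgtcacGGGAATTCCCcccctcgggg

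Several arrays stood apart in readings that use no member, and leaving 3 of them out was chosen after the data were seen. The scanner's median spot signal was 58.2 on MS2 replicate 5 and 121 to 154 on the others. MS5 replicate 9 read Xist, an RNA made from the inactive X of females, at a log2 level of 11.34 where the other 14 arrays read 5.89 to 6.08, which goes against its label as male. MS2 replicate 4 had a mean log2 level of 10.27 over 12 markers of hippocampal neurons (11.98 to 12.42 on the others) and of 11.05 over 12 markers of hypothalamus and thalamus (8.48 to 9.95). All 12 hippocampal markers were well above background on all 15 arrays, as the tissue label says. Markers of the choroid plexus averaged 11.68 to 12.68 in Con, 11.72 to 12.42 in MS2 and 8.71 to 12.13 in MS5, with all 12 well above background on every array. The lowest of these, 8.71, was MS5 replicate 14. In MS5 versus controls 11 of the 12 were lower by more than 1.5-fold at an unadjusted limma p under 0.05 (median -1.4), where 0.279% of all genes passed. In MS2 0 did. Of 12 hypothalamus and thalamus markers, 3 passed as higher in MS5. All 12 markers of meninges were lower in MS5 (median -0.208) but 0 passed. Of the 12 markers of hippocampal neurons, 11 were lower in MS5 (median -0.185) and 11 in MS2 (median -0.385), and 0 passed. All 10 markers of oligodendrocytes were higher in MS5 (median 0.219) and 8 in MS2 (median 0.191), and 0 passed. Those of astrocytes were 6 higher and 4 lower in MS5, and 7 and 3 in MS2, and 0 passed. Of 12 markers of brain endothelium 0 passed, with 3 lower and 1 higher at p under 0.05 (4.23% of all genes). Markers of microglia averaged 12.30 to 12.65 in Con, 12.24 to 12.57 in MS2 and 12.28 to 12.59 in MS5, with all 12 well above background. Calls below are given with and without the 3 arrays that stood apart, MS2 replicates 4 and 5 and MS5 replicate 9. MS5 replicate 14 was kept in that step and was left out singly. The part of the choroid plexus markers in the calls was not tested. Whether a lower level means fewer cells of a type or less RNA per cell cannot be told apart in this tissue RNA.

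No member moved by more than 1.5-fold at an unadjusted p under 0.05, the threshold that the study used. This held for all 15 probesets in MS2 versus controls, MS5 versus controls and MS5 versus MS2, where 0.0233%, 0.228% and 0.129% of all probesets passed. By limma none had a Benjamini-Hochberg adjusted p under 0.05 in any contrast, nor did any other probeset (0% in each). At an unadjusted p under 0.05 the members numbered 2 in MS2 versus controls (4.17% of all probesets), 2 in MS5 versus controls (3.9%) and 1 in MS5 versus MS2 (3.97%), all lower. The intervals give the precision of these differences in a fit that held neither litter nor slide. All 15 member probesets had 95% intervals inside a 1.5-fold change in each contrast, and the widest ends were 0.731-fold and 1.17-fold in MS2, 0.718-fold and 1.18-fold in MS5, and 0.805-fold and 1.19-fold for MS5 against MS2. Rel, which was not well above background, left that range with an offset of 0, with the scanner's processed signal and within slide 2. The remaining 14 probesets were well above background on every array, and none was saturated.

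Counts of lower readings were not tested, and several of the probesets read the same gene. They include Rel, well above background on 1 array only, and differences as small as that of Ikbkg A_51_P260300 in MS2 (-0.0203%). Of the 15 probesets 11 were lower in MS2 than in controls with a median log2 fold change of -0.019, where 51% of all probesets were lower. In MS5 12 were lower with a median of -0.05, where 49.8% of all were lower. The medians over all probesets were -0.002 and 0. MS2 and MS5 share the same controls, so these are not separate pieces of evidence. Between MS5 and MS2 the median was -0.014, with 11 lower, against 0.001 and 49.3% over all probesets.

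**Figure D1:**
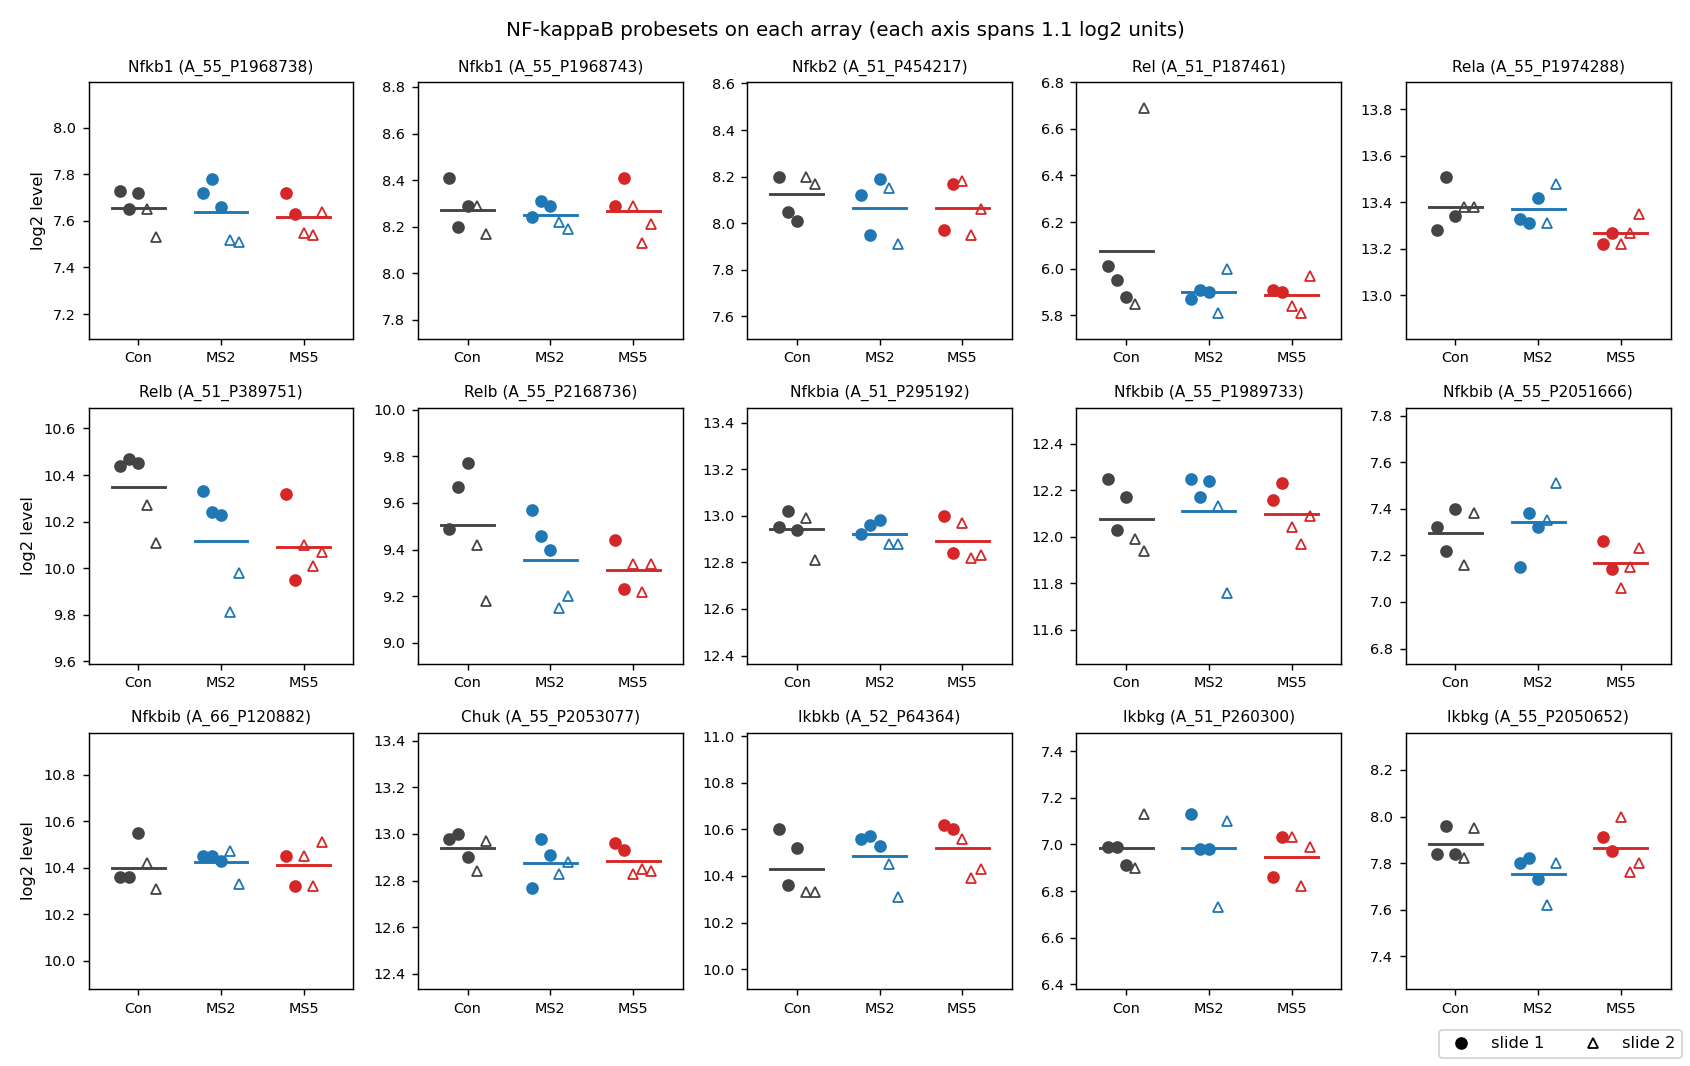
The log2 level of each of the 15 probesets (1 per panel) on each array, grouped as Con, MS2 and MS5, with the group mean as a line, filled circles for arrays on slide 1 and open triangles for slide 2. Groups overlap in every panel except MS2 and Con of Ikbkg A_55_P2050652, Relb A_51_P389751 averages lower on slide 2 in each group, and the single high Rel reading is Con replicate 19 at 6.69.

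Among the subunits, Relb was furthest from controls. Relb is the noncanonical partner of the Nfkb2 product p52. In A_51_P389751 the log2 level was 10.44, 10.47, 10.45, 10.27 and 10.11 on the control arrays (replicates 17, 18, 15, 16 and 19). It was 10.33, 10.24, 10.23, 9.81 and 9.98 in MS2 (replicates 1, 7, 3, 4 and 5). It was 10.32, 9.95, 10.10, 10.01 and 10.07 in MS5 (replicates 13, 8, 9, 14 and 12). The 3 highest readings were all controls, the lowest 2 were MS2 replicate 4 and MS5 replicate 8, and both treated groups overlapped the controls. The difference was -0.23 in MS2 (SE 0.10, limma p = 0.0401, exact p = 0.0873) and -0.26 in MS5 (SE 0.10, limma p = 0.0242, exact p = 0.0397), with limma adjusted p = 0.97 and adjusted p = 1. Here and below the exact p is from the two-sided permutation test of 5 against 5 arrays, which cannot go below 0.00794. MS5 and MS2 did not differ beyond their spread, at -0.03 with a 95% interval of -0.25 to 0.19.

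The neighbouring Relb probeset A_55_P2168736 varied with it (r = 0.89 over 15 arrays after removal of group means, with the slide difference left in). Its log2 level was 9.51 ± 0.23 (SD, n = 5) in Con, 9.36 ± 0.18 in MS2 and 9.31 ± 0.09 in MS5. The differences from controls, -0.15 (95% interval -0.37 to 0.07) and -0.19 (-0.41 to 0.03), pointed the same way but did not pass an unadjusted p of 0.05 by limma (exact p = 0.286 and 0.127). The MS2 difference depended on arrays that stood apart. Without MS2 replicates 4 and 5 and MS5 replicate 9, A_51_P389751 differed by -0.08 in MS2, where the limma call was lost, and by -0.26 in MS5, where it was kept. Left out singly, Con replicates 17, 18 and 15 and MS2 replicates 4 and 5 each took the MS2 limma p above 0.05, with differences of -0.21, -0.20, -0.21, -0.15 and -0.20. The MS2 call was also lost with an offset of 0 or the processed signal (-0.24 each), with array weights (-0.12) and with the 2 groups alone (-0.23), none of which ended the MS5 call. The latter was lost without Con replicates 17, 18 or 15 or MS5 replicates 8 or 14, at -0.24, -0.23, -0.23, -0.22 and -0.24.

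Rela encodes p65, the main activating subunit of the canonical dimer. Its log2 level was 13.28, 13.51, 13.34, 13.38 and 13.38 in Con, 13.33, 13.31, 13.42, 13.31 and 13.48 in MS2, and 13.22, 13.27, 13.22, 13.27 and 13.35 in MS5. The MS5 arrays were tightly grouped, and 4 of the 5 lay below every control. The difference in MS5 was -0.11 (SE 0.05, limma p = 0.0408, exact p = 0.0397), that is 0.926-fold, while MS2 was at -0.01 with a 95% interval of -0.11 to 0.10. MS5 was lower than MS2 by a similar amount, -0.10 (SE 0.05, limma p = 0.0533, exact p = 0.0476). The MS5 call by limma held in 12 of 24 alternatives. Among these 12 were the rebuilt values with spots averaged and each fit that left out an MS2 array, which leaves the MS5 difference unchanged. Of the fits without a control or MS5 array, only those without Con replicate 17 or 15 or MS5 replicate 12 kept the call. It was lost without the 3 arrays that stood apart (-0.10), with an offset of 0 (-0.11), the processed signal (-0.14) or the background filter (-0.11), and within either slide. It was also lost without Con replicate 18 (-0.08), Con replicate 16 or 19 (-0.11 each), or MS5 replicate 13, 8, 9 or 14 (-0.10, -0.11, -0.10 and -0.11).

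The other subunits differed little from controls. Nfkb1 encodes p105, the precursor of p50. Its probesets read 7.66 ± 0.08 and 8.27 ± 0.09 (SD, n = 5) in Con, 7.64 ± 0.12 and 8.25 ± 0.05 in MS2, and 7.62 ± 0.08 and 8.27 ± 0.10 in MS5. Differences from controls ranged from -0.04 to 0.00, and neither end of any 95% interval went beyond -0.17 or 0.11. Nfkb2 encodes p100, the precursor of p52. It read 8.13 ± 0.09 in Con, 8.07 ± 0.12 in MS2 and 8.07 ± 0.11 in MS5, with a difference of -0.06 in both treated groups (95% intervals -0.20 to 0.08). Rel encodes c-Rel, best known from lymphocytes. Its probe was not well above background on 14 of the 15 arrays and so gave no usable level in MS2 and MS5. The exception was Con replicate 19, at 6.69 where the other control arrays read 5.85 to 6.01.

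**Figure D2:**
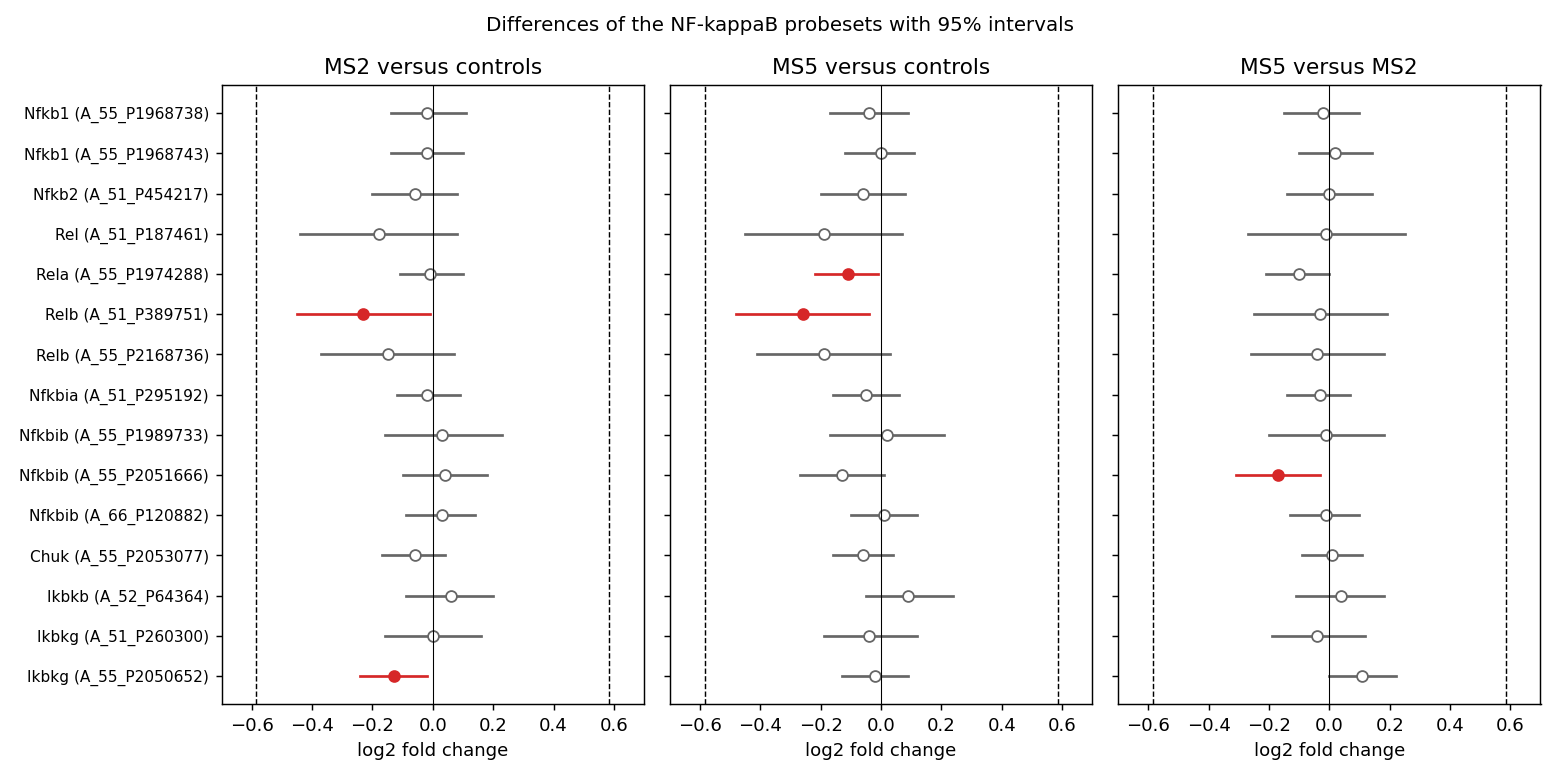
The log2 fold change of each of the 15 probesets with its 95% interval by limma, in 3 contrasts, with filled red points for an unadjusted p under 0.05 and dashed lines at a 1.5-fold change. Every interval lies between the dashed lines, and the filled points are Relb and Ikbkg in MS2, Relb and Rela in MS5, and Nfkbib in MS5 versus MS2.

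The inhibitors came next. Nfkbia encodes IkappaB-alpha, whose transcript is widely used as a readout of NF-kappaB activity because of the feedback loop. Its log2 level was 12.95, 13.02, 12.94, 12.99 and 12.81 in Con, 12.92, 12.96, 12.98, 12.88 and 12.88 in MS2, and 13, 12.84, 12.97, 12.82 and 12.83 in MS5. The 3 groups overlapped throughout. MS2 differed by -0.02 (95% interval -0.12 to 0.09) and MS5 by -0.05 (-0.16 to 0.06), so that a change of Nfkbia outside 0.898-fold to 1.04-fold in MS5 lies beyond the interval. The probesets whose readings followed that of Nfkbia most closely over the 15 arrays, after removal of group means and among 25724 probesets well above background, were those of Lrrc17 (r = 0.92), 3110047P20Rik (0.89), Col4a6 (0.89), Ccdc8 (0.88) and A930026B05Rik (0.88).

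Nfkbib encodes IkappaB-beta, which keeps dimers bound for longer. Its 3 probesets did not vary alike, with r = 0.39, -0.02 and -0.30 between pairs over the 15 arrays. A_55_P2051666, on the minus strand at chr7:29543270-29543329, read 7.32, 7.22, 7.40, 7.16 and 7.38 in Con, 7.15, 7.38, 7.32, 7.35 and 7.51 in MS2, and 7.26, 7.14, 7.06, 7.15 and 7.23 in MS5. The groups overlapped, and the highest reading was the dim array MS2 replicate 5. It was the probeset that differed between the doses, lower in MS5 than in MS2 by 0.17 (log2 fold change -0.17, SE 0.07, limma p = 0.0196, exact p = 0.0397). The limma call was lost without MS2 replicate 5 (-0.13) or MS5 replicate 9 (-0.15), and also without the 3 arrays that stood apart (-0.09), with array weights (-0.12) and with the processed signal (-0.26). Against controls the same probeset was at 0.04 in MS2 and at -0.13 in MS5 (95% interval -0.27 to 0.01, exact p = 0.0794). The other Nfkbib probesets gave -0.01 each between the doses, and between 0.01 and 0.03 against controls in both treated groups. In A_55_P1989733 MS2 replicate 5 read 11.76, where the other MS2 arrays read 12.13 to 12.25.

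The IkappaB kinase is made of the catalytic subunits Chuk (IKK-alpha) and Ikbkb (IKK-beta) and the scaffold Ikbkg (NEMO). Chuk read 12.94 ± 0.07 (SD, n = 5) in Con, 12.87 ± 0.08 in MS2 and 12.88 ± 0.06 in MS5, a difference of -0.06 in both (95% intervals -0.17 to 0.04 and -0.16 to 0.04). Ikbkb was among the few members with a higher reading, 10.43 ± 0.12 in Con, 10.48 ± 0.11 in MS2 and 10.52 ± 0.11 in MS5. The differences of 0.06 and 0.09 lay within the spread (95% intervals -0.09 to 0.20 and -0.05 to 0.24). With the slide as a block, Ikbkb in MS5 reached 0.12 and an unadjusted limma p under 0.05, which neither slide gave alone (0.12 within slide 1 and 0.13 within slide 2).

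Ikbkg had neighbouring probes on the plus strand of the X chromosome, at chrX:71694027-71694086 (A_55_P2050652) and chrX:71694102-71694161 (A_51_P260300). In A_55_P2050652 the log2 level was 7.84, 7.96, 7.84, 7.82 and 7.95 in Con, 7.80, 7.82, 7.73, 7.62 and 7.80 in MS2, and 7.91, 7.85, 8.00, 7.76 and 7.80 in MS5. All 5 MS2 arrays lay below all 5 controls, but by a gap of only 0.00212 log2 units between the nearest arrays. It was the 1 of 15 member probesets without overlap between MS2 and controls, where 0.702% of all probesets had none, and 0 of 15 had none in MS5 versus controls (0.828%) or MS5 versus MS2 (0.621%). The MS2 difference was -0.13 (SE 0.05, limma p = 0.028, exact p = 0.00794, the smallest possible), and MS5 was at -0.02. The Ikbkg probeset a few bases further on read 6.98 ± 0.09, 6.98 ± 0.16 and 6.95 ± 0.10 with a difference of 0.00 in MS2 (95% interval -0.16 to 0.16), although the 2 varied together over the arrays (r = 0.69). The call of A_55_P2050652 by limma was lost without Con replicate 18 or 19 (-0.11 each) or MS2 replicate 3 or 4 (-0.12 and -0.10), with array weights (-0.10), and without the 3 arrays that stood apart (-0.10).

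The members also differed between the slides on which the arrays lay. The 15 arrays were on 2 slides that were scanned at different times, with 3, 3 and 2 arrays of Con, MS2 and MS5 on slide 1 and 2, 2 and 3 on slide 2. With groups and slide in the same limma fit, 6 of the 15 member probesets differed between slides at an unadjusted p under 0.05 (17.9% of all probesets), all lower on slide 2, and 3 of them at an adjusted p under 0.05 (3.68%). These 3 were Nfkb1 A_55_P1968738 (-0.14, SE 0.03, adjusted p = 0.0434), Nfkbib A_55_P1989733 (-0.21, SE 0.05, adjusted p = 0.0489) and Ikbkb (-0.16, SE 0.04, adjusted p = 0.0412). Both Relb probesets were 0.24 and 0.23 lower on slide 2 (log2 differences -0.24 and -0.23, SE 0.06 each, adjusted p = 0.0504 and 0.0728), close to the differences of -0.26 and -0.19 between MS5 and controls. Nfkbia differed by -0.06 (SE 0.04) and Rela by 0.03 (SE 0.04), neither at an unadjusted p under 0.05.

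Within slides the Relb difference from controls changed in size, and for 1 of the 2 probesets it was gone in MS5 on slide 2. On slide 1, A_51_P389751 averaged 10.45 in Con, 10.27 in MS2 and 10.14 in MS5, and on slide 2 it averaged 10.19, 9.89 and 10.06. The MS5 difference was -0.32 within slide 1 and -0.13 within slide 2, where it did not pass an unadjusted limma p of 0.05, and -0.21 with the slide as a block, where it did. The MS2 difference was -0.19 within slide 1 (not passed), -0.30 within slide 2 and -0.23 with the block (both passed). The other Relb probeset, A_55_P2168736, averaged 9.64 in Con, 9.48 in MS2 and 9.33 in MS5 on slide 1, and 9.30, 9.18 and 9.30 on slide 2. Its MS5 difference was -0.31 within slide 1 (passed), 0 within slide 2 and -0.15 with the block (neither passed), and its MS2 difference was -0.17, -0.12 and -0.15 (none passed). Rela in MS5 was at -0.13 within slide 1 and -0.10 within slide 2, neither passed, and at -0.12 with the block, which passed. Ikbkg A_55_P2050652 in MS2 followed the same pattern at -0.10, -0.18 and -0.13. Nfkbib A_55_P2051666 in MS5 against MS2 was at -0.09 within slide 1 (not passed), and at -0.28 within slide 2 and -0.18 with the block (both passed).

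**Figure D3:**
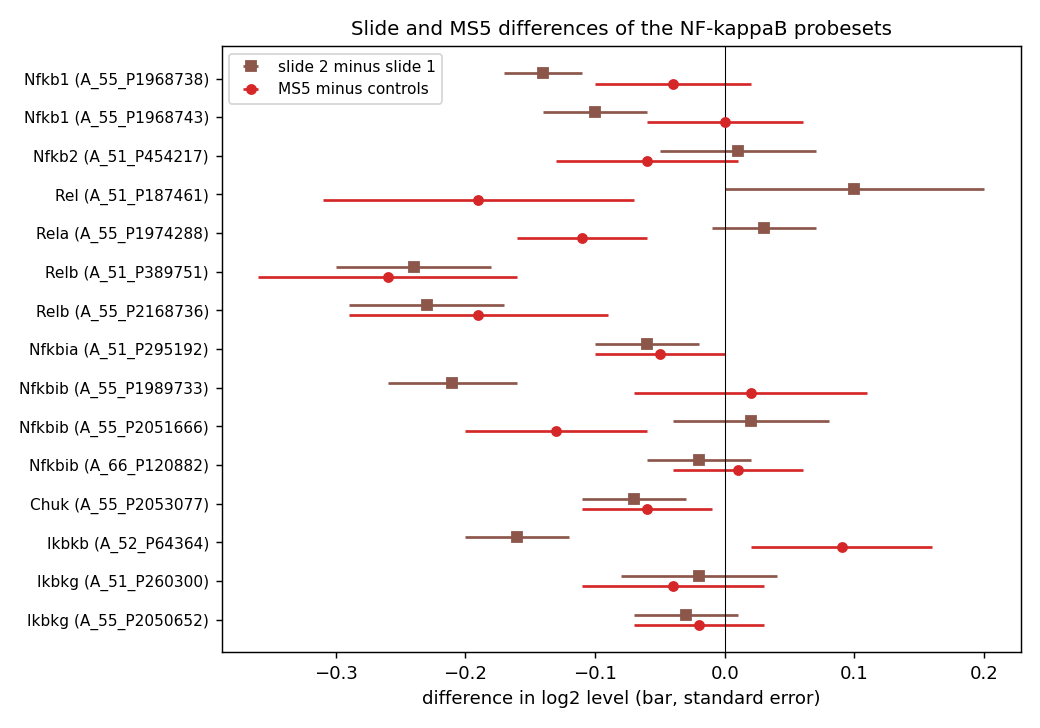
For each of the 15 probesets, the difference in log2 level between slide 2 and slide 1 (squares, from the fit with groups and slide) and between MS5 and controls (circles, from the fit of groups), with standard errors as bars. The slide squares of Relb lie at -0.24 and -0.23 beside MS5 circles at -0.26 and -0.19, while Ikbkb lies at -0.16 between slides and 0.09 between groups.

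Members did not vary as a unit over the arrays. Probes of the same gene had a residual r of 0.89 in Relb, 0.69 in Ikbkg, 0.59 in Nfkb1 and -0.30 to 0.39 in Nfkbib. Over 99 pairs of probesets of different member genes the residual r ranged from -0.69 to 0.87 with a median of 0.11, over 15 arrays that share the slides. The highest was Ikbkb with Nfkbib A_55_P1989733 and the lowest Ikbkb with Rela.

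The rest of the pathway was read through 1 probeset per gene, the brightest. No gene of any list passed the 1.5-fold threshold in any contrast, where 0.0304%, 0.279% and 0.163% of all genes passed in MS2 versus controls, MS5 versus controls and MS5 versus MS2. Counts at an unadjusted p under 0.05 were set against 3.95%, 4.23% and 3.89% of all genes. Of 34 ligands and receptors that signal to NF-kappaB, 5 were lower in MS5 and 2 lower in MS2, and none was higher. The former were receptors or a receptor regulator: the tumor necrosis factor receptor Tnfrsf1b (-0.18, SE 0.05, exact p = 0.0159), the Toll-like receptor Tlr2 (-0.32, SE 0.11, exact p = 0.0317), the lymphotoxin beta receptor Ltbr (-0.21, SE 0.09, exact p = 0.0794), and, named after their values were seen, the interleukin-1 receptor Il1r1 (-0.20, SE 0.09, exact p = 0.0397) and its inhibitory relative Sigirr (-0.40, SE 0.18, exact p = 0.00794). Tnfrsf1b read 7.14 ± 0.08 (SD, n = 5) in Con, 7.01 ± 0.08 in MS2 and 6.96 ± 0.08 in MS5. It was also in the MS2 count at -0.14 (exact p = 0.0476), together with the ligand Tnfsf11 (-0.20, exact p = 0.103, named after its value was seen). The list median was -0.014 in MS5 and -0.044 in MS2, with 18 and 21 of 34 lower, against -0.001 and -0.005 over all genes, of which 50.5% and 52.8% were lower. Only 24 of the 34 were well above background on all 15 arrays. The ligands Il1a and Cd40lg, the receptor Il18r1 and Il1rn were so on none, and Tnf and Il1b on only some. The absence of these ligands from the calls is therefore not a reading of a steady level. Without the 3 arrays that stood apart Tnfrsf1b (-0.16), Tlr2 (-0.33) and Sigirr (-0.46) kept their MS5 calls by limma, whereas Ltbr (-0.17) and Il1r1 (-0.19) lost them. In MS2 Tnfrsf1b kept its call (-0.13) and Tnfsf11 did not (-0.07). Sigirr was at -0.16 without MS5 replicate 8, Il1r1 at -0.12 without MS5 replicate 14 and Tnfsf11 at -0.12 without MS2 replicate 4. With each array left out in turn, the MS5 calls of Tnfrsf1b and Tlr2 held. That of Ltbr was lost without Con replicate 17, 16 or 19 or MS5 replicate 9 or 14, that of Il1r1 without Con replicate 17, 18, 15 or 16 or MS5 replicate 9 or 14, and that of Sigirr without Con replicate 17, 18, 15 or 16. In MS2 the call of Tnfrsf1b was lost without Con replicate 17 or MS2 replicate 3 or 4, and that of Tnfsf11 without Con replicate 18 or 16 or MS2 replicate 4 or 5.

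Of 42 upstream kinases and adaptors, 2 were lower in MS5, both named by rule. Fadd, the death domain adaptor, read 8.47 to 8.66 in Con, 8.31 to 8.51 in MS2 and 7.26 to 8.40 in MS5, a difference of -0.46 (SE 0.16, limma p = 0.0142, exact p = 0.00794). All 5 MS5 arrays lay below all controls, with a wide spread (SD 0.47), and the size rested on MS5 replicate 8 at 7.26, without which the difference was -0.25 and still passed by limma. Without the 3 arrays that stood apart it was -0.46, which passed. Tab1, which activates the kinase Map3k7, was at -0.17 (SE 0.07, exact p = 0.0397), and at -0.10, not passed, without MS5 replicate 9 or without the 3 arrays. Its call was also lost without Con replicate 18 or 15. Ikbke, a kinase related to IKK, was at -0.14 (SE 0.07, exact p = 0.0397) and just missed by limma, but passed at -0.13 without the 3 arrays. In MS2 the list had Bcl10 (-0.16, exact p = 0.0159) and Traf1 (-0.45, exact p = 0.0873) lower and Tab2 (0.24, exact p = 0.103) higher, all named after their values were seen. Between MS5 and MS2, the ubiquitin ligase gene Rnf31 (-0.14, exact p = 0.119) and the ligand Il1a, both also named after their values were seen, were the only genes of these lists at a limma p under 0.05, and Il1a was well above background on none of the 15 arrays. Without the 3 arrays Bcl10 (-0.12) and Tab2 (0.33) kept their calls, whereas Traf1 (-0.40), Rnf31 (-0.04) and Il1a (0.06) lost them. Of the calls named here, those of Fadd and Bcl10 held with each array left out, whereas Traf1 lost its call without any 1 of 6 arrays, Tab2 of 10 and Rnf31 of 12.

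Targets and further inhibitors were called at 2.94% and 0% in both MS5 and MS2, where 4.23% and 3.95% of all genes were. Of 34 measured NF-kappaB target genes, among them chemokines, adhesion molecules and acute-phase genes, 1 was lower in MS5 and in MS2. This was Socs3, a feedback inhibitor of cytokine signaling, with 9.24 to 9.56 in Con, 8.94 to 9.26 in MS2 and 8.97 to 9.26 in MS5. Its differences were -0.25 in MS5 (SE 0.07, limma p = 0.00407, exact p = 0.0159) and -0.21 in MS2 (limma p = 0.0139, exact p = 0.0159). Without the 3 arrays that stood apart Socs3 was at -0.29 in MS5, which passed, and at -0.14 in MS2, which did not. Both its calls held with each array left out. The complement factor Cfb (0.19, SE 0.10, exact p = 0.0952) and the interferon regulatory factor Irf1 (-0.19, SE 0.09, exact p = 0.0317) came next, and both passed by limma without the 3 arrays (0.22 and -0.17). The target list had a median of -0.009 in MS5 and 0 in MS2, and 24 of the 34 genes were well above background on all arrays. Of 15 other inhibitors and atypical IkappaB proteins, 0 had p under 0.05 in MS5 or MS2 by limma, where the closest in MS5 were Nfkbie (-0.15, exact p = 0.0714), N4bp1 (0.15, exact p = 0.0794) and Commd1 (-0.08, exact p = 0.278). Without the 3 arrays N4bp1 passed (0.14), while Nfkbie (-0.12) and Commd1 (-0.06) did not. The same step moved the number of targets called from 1 to 5 in MS5, from 1 to 2 in MS2 and from 0 to 6 in MS5 versus MS2, and that of ligands and receptors in MS5 versus MS2 from 1 to 5. The share of all genes called after that step was not counted. These moves therefore cannot be told apart from a shift over all genes.

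A Biocarta NF-kappaB set that the study listed from its gene set tests on these same arrays is not independent evidence of direction. The study placed it among sets of mixed expression, and listed a GO NF-kappaB cascade set, not examined here, as downregulated. Its Discussion cites both for a lower NF-kappaB pathway. The Biocarta set holds 23 genes, 6 of them members and all 23 on another of the lists. In MS5 it had 18 of 23 lower with a median of -0.05 (50.5% lower over all genes), and 5 with p under 0.05, all lower: Rela, Fadd, Tab1, Tnfrsf1b and Il1r1. In MS2 it had 18 of 23 lower with a median of -0.036 (52.8% lower over all genes), and 2 at p under 0.05, Ikbkg and Tnfrsf1b. Without MS5 replicate 9, the array whose Xist level went against its label, the MS5 count was 2, and without the 3 arrays that stood apart it was also 2. Leaving out MS5 replicate 9 also took the kinases and adaptors from 2 to 1 and the target genes from 1 to 2, while the ligands and receptors went from 5 to 4. The share of all genes called without these arrays was not counted, so the moves are not a result about the lists.

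**Figure D4:**
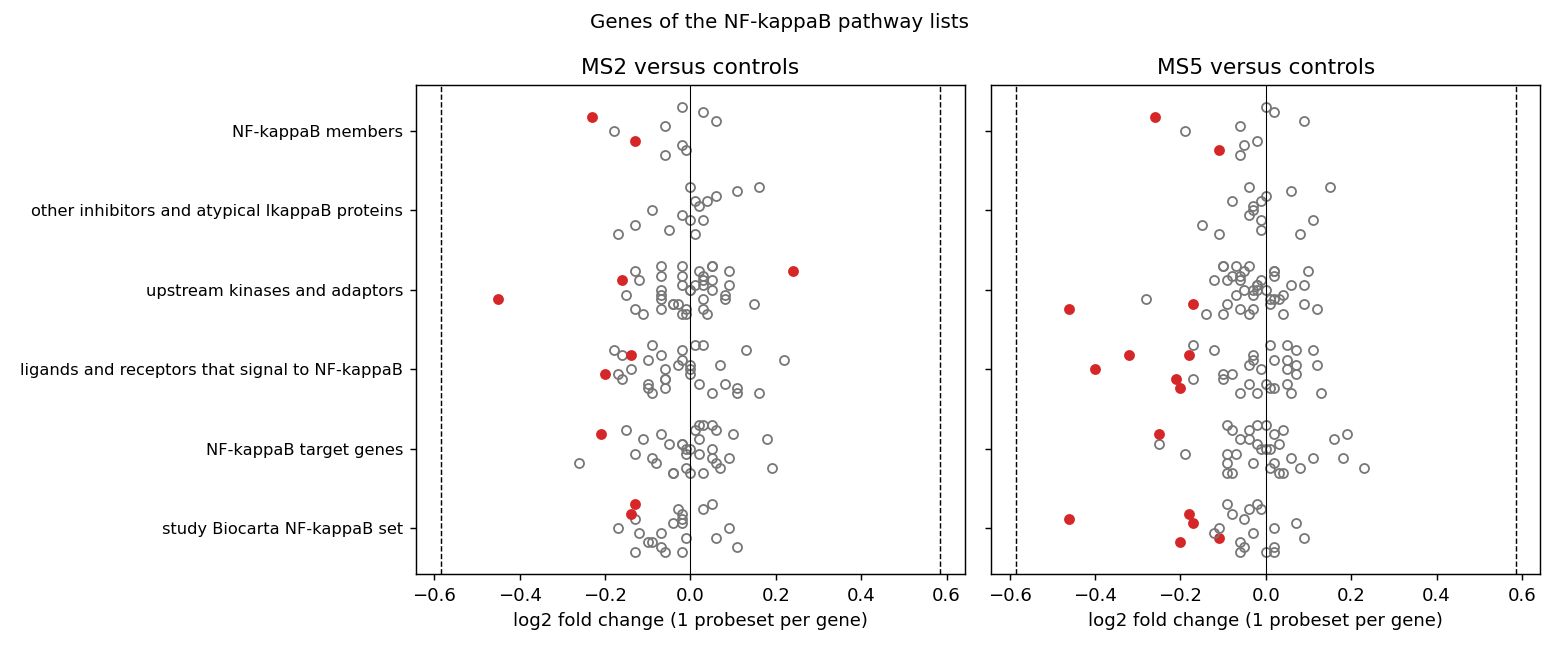
The log2 fold change of each gene of 6 pathway lists (1 probeset per gene, the brightest) in MS2 and MS5 versus controls, with filled red points for a limma unadjusted p under 0.05 and dashed lines at a 1.5-fold change. No point reaches a dashed line, and the leftmost filled points are Traf1 in MS2 (-0.45) and Fadd in MS5 (-0.46).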

How the data were processed

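The authors deposited scanner intensity for each spot from Agilent Feature Extraction 10.7.1.1, and a table of log2 values that they had background-adjusted with normexp and quantile normalized. The table was used. Rebuilding it from the intensity files at an offset of 50 with the first spot of each probe matched within 5e-09. Control spots were dropped. R 4.3.3, limma 3.58.1 and data.table (version 1.17.8) were used. The 3 groups were fitted together (lmFit, eBayes), with Benjamini-Hochberg adjustment over 55681 probesets. Exact permutation tests were two-sided. The flag for well above background came from the scanner files. The number of arrays limited the precision. Steps were tested on simulated data. The 9 miR arrays were not used here.

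The members and lists were chosen with earlier results of these data known. All members were named. From each list the genes past the threshold and the 3 with the smallest MS5 p were named, and 5 probesets most like Nfkbia. The alternatives were rebuilt values with spots averaged, an offset of 0, the processed signal at the 75th percentile, array weights, a background filter, the slide as a block, each slide alone, 2 groups alone, and each array left out. Leaving out 3 arrays that stood apart, and for the lists single arrays too, was chosen after seeing the data.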

Additional observations from a re-analysis of the deposited data

Results flagged for a closer look

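Among the 45 groups of 5 arrays (15 probesets in 3 groups), 2 held an array whose distance from its nearest neighbour exceeded 0.71 of the whole range of its group, Dixon's 95% limit for 5 values. Chance gives about 1 such group in 20. In Rel the array was Con replicate 19, at a log2 level of 6.69, the only array of the 15 on which the Rel probe was well above background. In Nfkbib A_55_P1989733 it was MS2 replicate 5, at 11.76, the array with the lowest median spot signal.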

How the results depend on the processing

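No member passed the 1.5-fold threshold, and none had an adjusted p under 0.05, under any of the alternatives run, and no called single value changed its sign. The number of members with an unadjusted p under 0.05 did move. The share of all probesets called, or without overlap, was counted only for the deposited values with every array kept. Moves of the member counts below therefore cannot be told apart from a shift over the whole array. In MS2 versus controls it was 2, but 1 with an offset of 0, the processed signal, slide 2 alone or the 2 groups alone, 0 with array weights, slide 1 alone or without the 3 arrays that stood apart, and 0 to 2 with each array left out. In MS5 versus controls it was 2, but 3 with array weights, the slide as a block or the 2 groups alone, 1 with an offset of 0, the processed signal, the background filter or without the 3 arrays, 0 on slide 2 alone, and 0 to 3 with each array left out. In MS5 versus MS2 it was 1, but 2 with the slide as a block, 0 with array weights, slide 1 alone or without the 3 arrays, and 0 to 3 with each array left out. With the processed signal that 1 was Ikbkg A_55_P2050652 (0.16) in place of Nfkbib A_55_P2051666. With the processed signal 1 probeset was without overlap in MS5 versus MS2, where there had been 0. The median log2 fold change in MS5 versus MS2 went from -0.014 to -0.073 without the 3 arrays and to 0.031 within slide 2, and medians otherwise stayed between -0.051 and -0.008 in MS2 and between -0.068 and -0.021 in MS5. The calls gained in MS5 were Relb A_55_P2168736 with array weights (-0.20) and within slide 1 (-0.31), Ikbkb with the block (0.12) and Nfkbib A_55_P2051666 with 2 groups (-0.13). The cause of these shifts was not tested. Calls gained by leaving out 1 array included Relb A_55_P2168736 without Con replicate 19 (-0.23 in MS2 and -0.27 in MS5), Nfkbib A_55_P2051666 in MS5 versus controls, and Rela and Ikbkg A_55_P2050652 in MS5 versus MS2. The background filter left no value for Rel. No analysis paired by litter was possible because the labels name no litter, and the 3 groups of mRNA arrays share no replicate numbers. Array number and signal over background limited the rest, Rel most of all.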
